A study of Rattus norvegicus with 30 samples.

Results

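Lungs of rats that had breathed a high dose of copper oxide (CuO) nanoparticles were set against lungs of rats that had breathed a low dose, 1 day after the last exposure (day 6). The high dose was 13.2 mg/m3 and the low dose 3.3 mg/m3, with 5 rats each, and 5 rats that breathed only air (0 mg/m3) gave the level from which both doses moved. All were adult male Wistar Unilever outbred rats of the strain HsdCpb:WU, 8 weeks old when bought, exposed through the nose on 5 consecutive days at concentrations given as 6-hour equivalents. RNA of each whole lung went on 1 two-colour Agilent array beside a common reference RNA, so that 10 of the 30 arrays carry the comparison of doses and 5 more carry the air level. The treatment label of the air rats names CuO as well, although the exposure protocol has them breathing air only. They also name a mouse reference RNA in one place and a rat reference made from 14 cell lines in another, which is the same on every array and drops out of each difference.

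Copper oxide particles dissolve in the acid lysosomes of phagocytes and free copper ions, which bind metallothioneins and drive oxidative reactions. Injured airway and alveolar cells and resident macrophages then release chemokines, small secreted proteins that draw monocytes and neutrophils out of the blood. Interferons act through a transcription factor complex that holds STAT2 and IRF9 on genes whose promoters hold an interferon-stimulated response element. Sterol synthesis is switched by SREBP transcription factors, which answer to the cholesterol content of the endoplasmic reticulum, and cell division genes by E2F, B-Myb and FoxM1.

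On the 15 day 6 arrays the lung channel (Cy5) had a median intensity of 173 to 230, and the share of probes clearly above background ran from 63.7% to 69.9%. Lung markers such as Sftpc, Sftpb, Scgb1a1 and Ager were above background on all 10 arrays of the exposed rats, and the macrophage receptor Marco on 3 of them. Of the liver genes Apob was above background on 0 of the 10, while Alb, Ttr and Serpina1 were on all 10. Serpina1 also separated the doses, at 1.28 to 2.49 (log2 over the mean of air rats) in high dose rats against 0.05 to 0.92 in low dose rats. Air rat 5 stood apart in Alb and Ttr, at 2.75 and 2.15 (log2 over the mean of air rats), against -1.17 to -0.22 and -0.83 to -0.16 in the other air rats. Heart muscle RNA stood apart in 1 exposed rat: the mean of 18 heart muscle markers was 1.37 (log2 over air) in low dose rat 49, against -1.06 to -0.71 in the other low dose rats and -1.18 to -0.71 in high dose rats. Among air rats it was 3.80 in rat 4. Results are therefore also given without low dose rat 49 where that changed them.

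The comparison asks which genes kept scaling with dose and which had already reached their level at the low dose. Of 18889 genes tested, 2186 differed between the doses on day 6 at an adjusted p under 0.05 in limma. High dose rats were higher for 1476 genes (7.81%) and lower for 710 (3.76%). The 5 high dose rats all lay above the 5 low dose rats in 1085 genes and all below in 566. Most differences were small, with a median size of 0.50 (log2) over the called genes, while 228 genes were at least 2-fold higher and 35 at least 2-fold lower. The median of all genes was 0.01, and the median standard error (SE) of a difference was 0.114. The share of called genes that were higher was 67.5%, and it was 56.2% with Agilent's processed signals, 55.4% with the Cy5 channel alone and 54% in the authors' deposited log2 ratios. Low dose rats against air rats gave 920 genes higher (4.87%) and 322 lower (1.7%), and high dose rats against air rats 3896 higher (20.6%) and 2848 lower (15.1%).

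Genes were sorted by how the 3 differences stood to each other. A gene was called graded where each dose step passed the test in 1 direction, and high dose only where both differences of the high dose passed and the 95% interval of low dose minus air lay within 1.5-fold either way. It was called scaling with the low dose unresolved where that interval was wider. A plateau needed a low dose change of at least 2-fold that passed, with a further step that did not pass and whose 95% interval lay within 1.5-fold. A gene was called opposed where the low dose moved it from air and the high dose lay back toward or past air. Graded genes numbered 550, with 421 rising and 129 falling. Another 1135 genes were high dose only (740 higher, 395 lower), and 406 scaled with the low dose unresolved (267 higher, 139 lower). High dose only genes had a median low dose change of 0.12 (log2) where higher and -0.15 where lower. The name stands for a bounded change at the low dose, not for none. The plateau rule was met by 35 genes, all of them increases, and 18 were opposed. Of the classes, the plateau alone asks for a minimum change. With a low dose change of at least 0.5 (log2) in place of 2-fold, 184 genes met it. Its count therefore cannot be set directly against those of the graded and high dose only classes. The classes contain the differences that define them and are a description. The 3 differences also share rats: the low dose rats enter both dose steps with opposite sign.

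**Figure D1:**
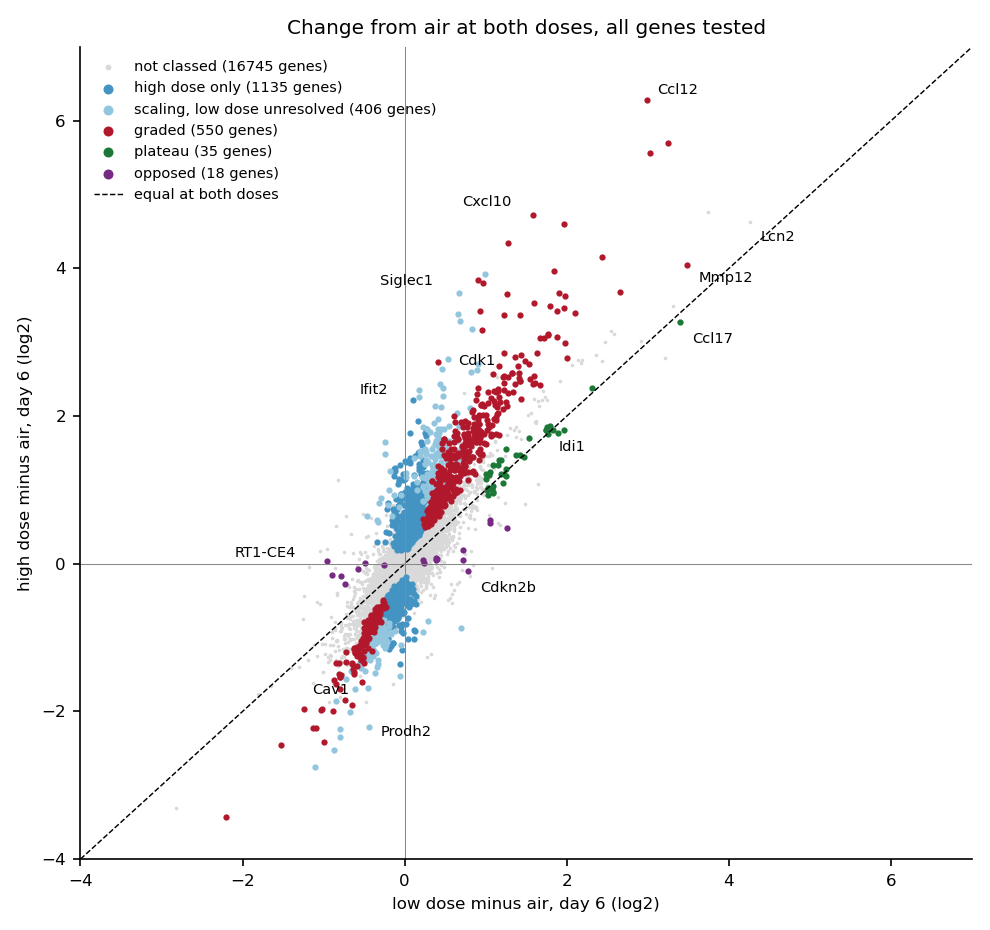
Each point is 1 of 18889 genes, with low dose minus air (log2) on the x axis and high dose minus air (log2) on the y axis, coloured by dose class; the dashed line marks equal change at both doses. Graded genes such as Ccl12 lie above the line, plateau genes such as Ccl17 and Idi1 lie on it, and high dose only genes such as Ifit2 stand near x = 0.

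The size of these counts rested in part on single rats. Without high dose rat 77 the doses differed in 1407 genes, 384 of them lower at the high dose, and without high dose rat 79 in 1352, 340 of them lower. The high dose only class then held 664 and 628 genes, the class with the low dose unresolved 255 and 222, and the opposed class 10 in either case. Without low dose rat 49 the high dose only class held 748 genes. Members of 46 gene lists were read against the shares of all genes given above. The medians of some lists changed sign under at least 1 alternative and carry no direction: B cell, natural killer, mast cell, type II, club, heart muscle, matrix, heat shock, immediate early, respiratory chain, prostaglandin and sterol genes. Within single slides further list medians took both signs: chemokine receptor, macrophage, T cell, lysosome, proteasome, unfolded protein, oxidant enzyme and metallothionein genes. The same held for fatty acid, type I, ciliated, basal, endothelial and erythroid genes.

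**Figure D2:**
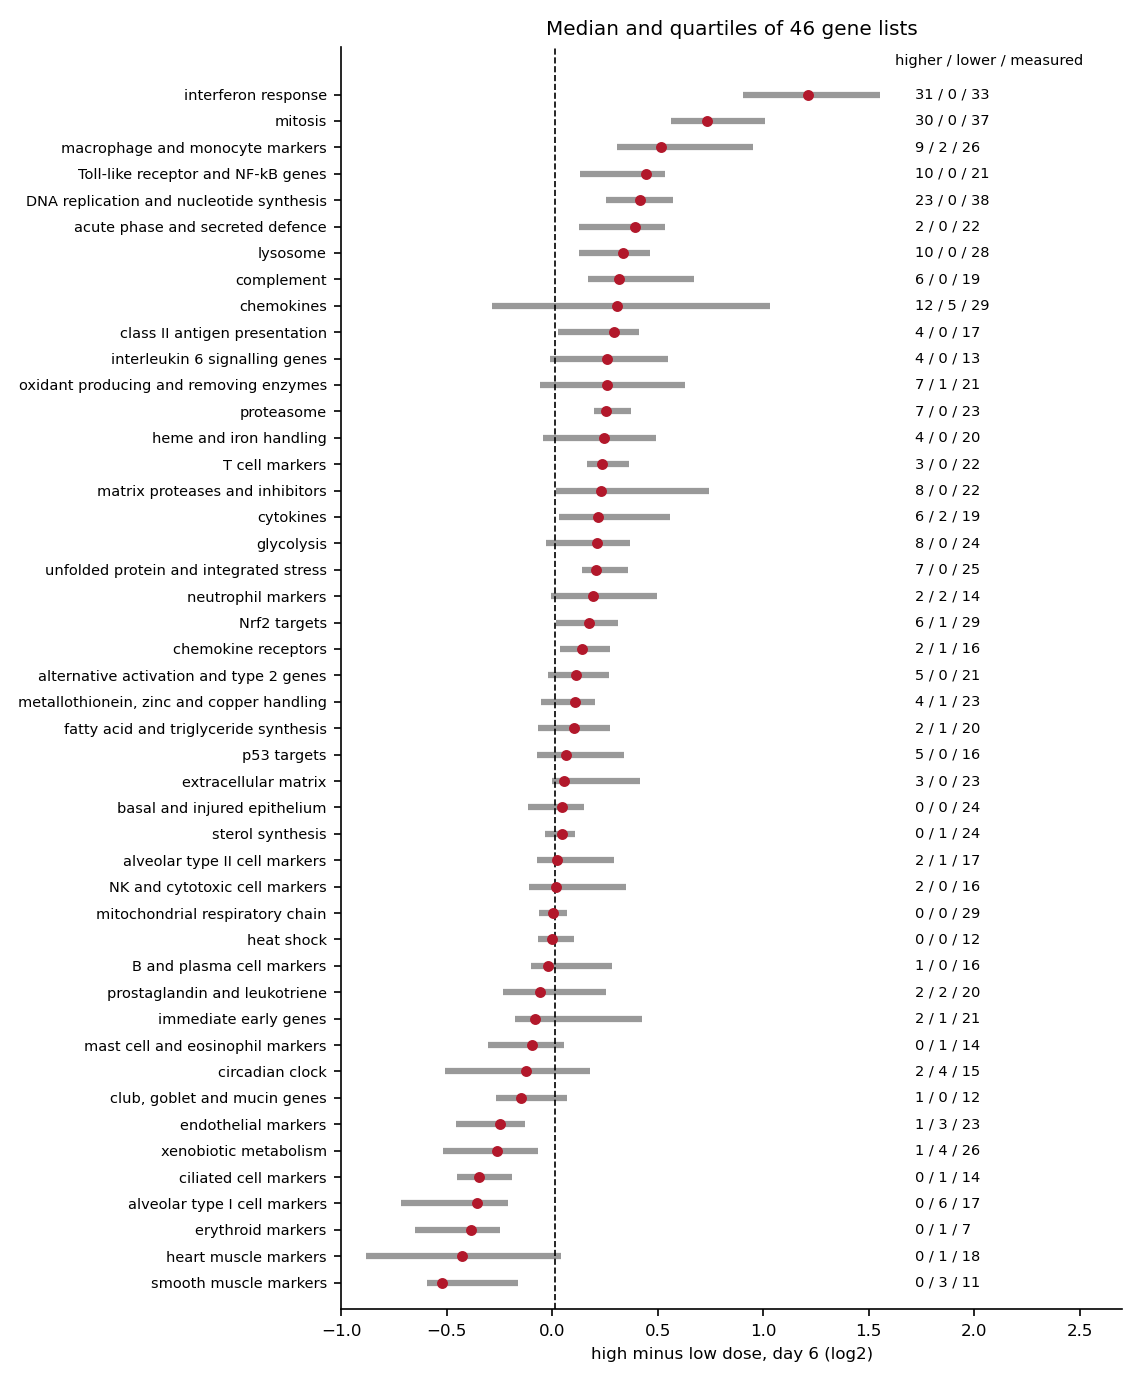
Median (point) and quartiles (bar) of high minus low dose on day 6 (log2) for 46 gene lists, with the number of members that were higher, lower and measured; the dashed line is the median of all genes. Interferon response genes head the plot at a median of 1.21 and smooth muscle markers close it at -0.52.

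Monocyte attractants and interferon-induced T cell attractants were far higher at the high dose than at the low dose. Among 29 measured chemokines, 12 were higher at the high dose than at the low dose and 5 lower, with a median difference of 0.31. The values below are log2 levels relative to the mean of the 5 air rats. Ccl12, a monocyte attractant of rodents, read 4.98, 6.06, 6.73, 6.80 and 6.83 in high dose rats, against 2.36, 2.41, 2.54, 2.96 and 4.66 in low dose rats. The groups did not overlap, although low dose rat 50 at 4.66 stood well above its group. Air rats read -0.42 to 0.36, and high minus low was 3.30 ± 0.34 (adjusted p = 1.29e-07), a 9.82-fold step on top of a 7.92-fold rise from air to the low dose. Ccl2, the main ligand of the monocyte receptor Ccr2, read 4.47, 5.65, 5.85, 6.13 and 6.41 in high dose rats, against 2.32, 2.78, 3.43, 3.52 and 4.19 in low dose rats. Its dose step was 2.45 ± 0.42 (adjusted p = 0.00017), and the lowest high dose rat was still above the highest low dose rat. Ccl7, which signals through the same receptor, had a step of 2.53 ± 0.31 (adjusted p = 1.84e-06).

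Cxcl10, which draws activated T cells through Cxcr3, read 4.05, 4.69, 4.80, 5.05 and 5.07 in high dose rats, against 0.69, 0.78, 1.69, 2.27 and 2.51 in low dose rats. All high dose rats lay above all low dose rats, by 3.14 ± 0.27 (adjusted p = 6.6e-09). Its relative Cxcl11 read 2.29, 2.62, 2.67, 2.99 and 3.08 in high dose rats, against 0.05, 0.20, 0.47, 0.59 and 0.75 in low dose rats. The 2 groups were far apart, at 2.31 ± 0.11 (adjusted p = 8.66e-14), and the air rats were not well above background, so no fold over air is given. Cxcl9, the third ligand of Cxcr3, was higher by 0.72 ± 0.17 and Xcl1, made by cytotoxic lymphocytes, by 1.42 ± 0.26. Cxcl1, a neutrophil attractant, rose by 1.40 ± 0.22 at this step, with overlapping groups, against 1.43 for the low dose over air.

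Set on a linear scale, the excess of high dose rats over air was 11.1 times that of low dose rats for Ccl12, 12.7 times for Cxcl10, 6.01 times for Ccl2 and 6.46 times for Ccl7. The exposure concentrations differed by 4 times. These ratios of means carry no error of their own. Other chemokines had no rise that passed at the second dose step, which by itself does not show equal levels. Ccl17, which draws Ccr4-bearing T cells, read 2.87, 3.09, 3.22, 3.56 and 3.64 in high dose rats, against 3.22, 3.22, 3.33, 3.45 and 3.74 in low dose rats. The groups lay on each other, with air rats at -0.32 to 0.25, and high minus low was -0.12 ± 0.15 with a 95% interval of -0.43 to 0.20 (adjusted p = 0.718). Ccl22, the other ligand of Ccr4, was 3.22 above air at the low dose, and its dose step of -0.42 ± 0.15 did not pass (adjusted p = 0.0608). That step passed with slide as a block (-0.35, adjusted p = 0.0406), with the Cy5 channel alone (-0.60, adjusted p = 0.0049) and without high dose rat 75 (-0.55), high dose rat 77 (-0.51) or low dose rat 48 (-0.48). Cxcl2, another neutrophil attractant, had a step of 0.31 ± 0.28 (adjusted p = 0.575) after 1.61 at the low dose. Lower at the high dose were Ccl6 (-1.34 ± 0.33, adjusted p = 0.00611), the eosinophil attractant Ccl11 (-1.01 ± 0.28), Ccl9 (-0.92 ± 0.29), Cxcl14 (-0.60 ± 0.16) and Ccl27 (-0.35 ± 0.11).

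**Figure D3:**
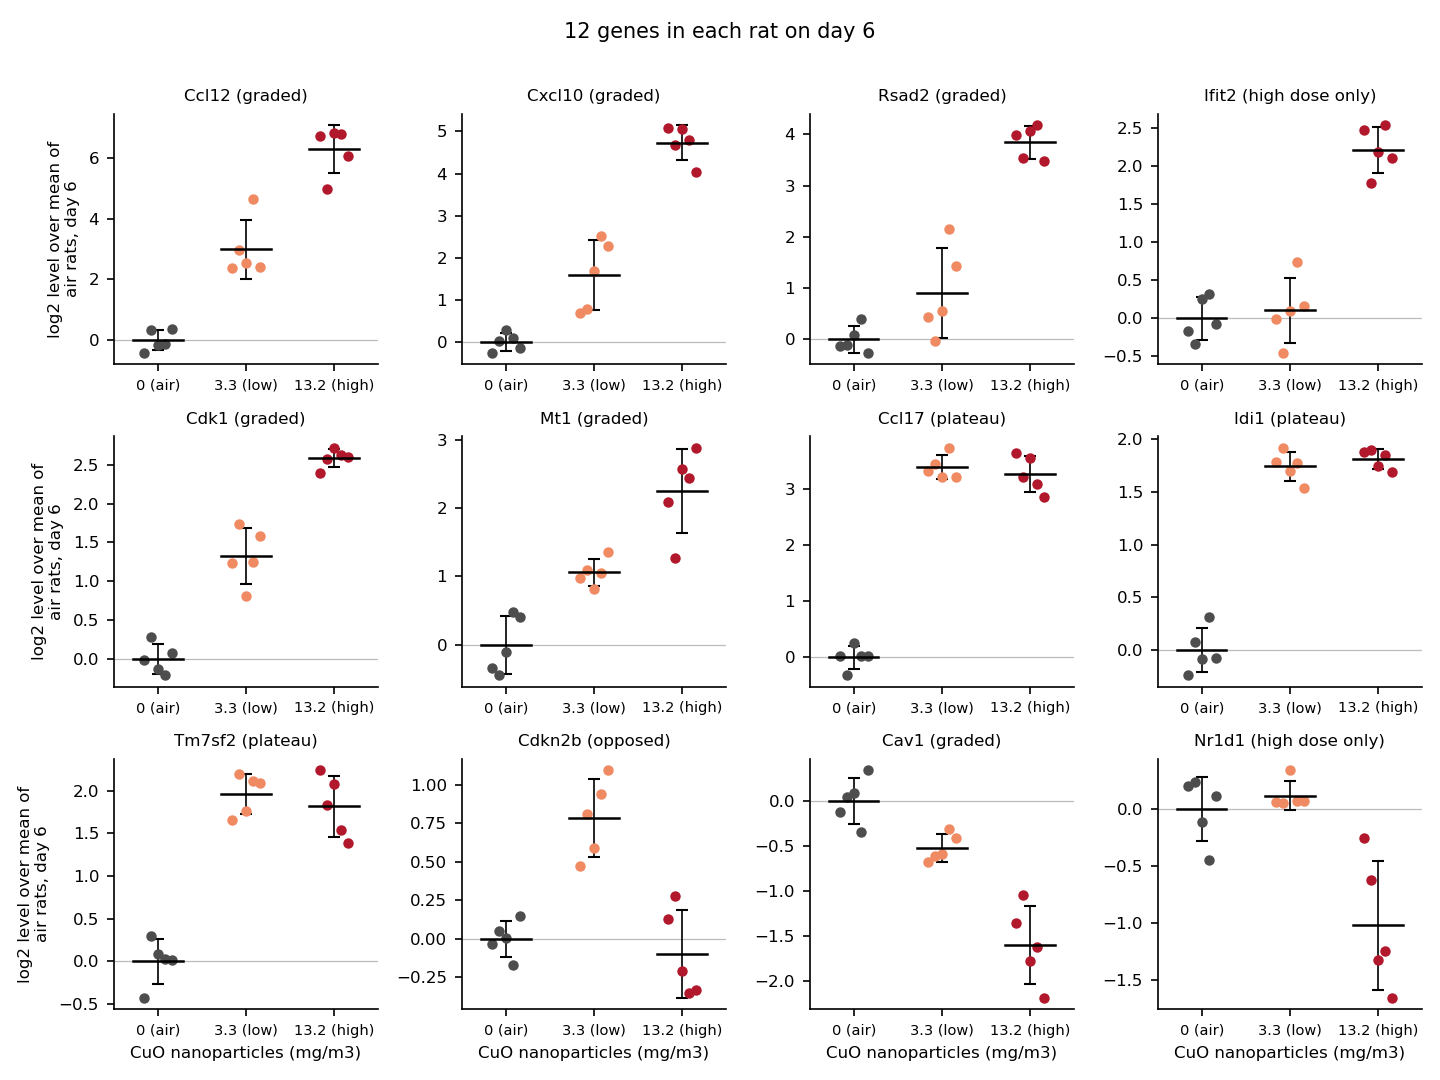
Log2 level of 12 genes over the mean of air rats on day 6 in each rat (points) at 0 (air), 3.3 (low) and 13.2 mg/m3 (high), with the group mean (line) and SD (error bar, n = 5); each title gives the dose class. Ccl12, Cxcl10, Rsad2 and Cdk1 are highest in the high dose rats, Ccl17, Idi1 and Tm7sf2 overlap between the doses, and Cdkn2b lies around the air level at the high dose.

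Of 16 chemokine receptors 2 were higher and 1 lower (median 0.14). Cxcr3, found on activated T cells, rose by 0.49 ± 0.16 (adjusted p = 0.0491), while the neutrophil receptor Cxcr1 fell by 1.41 ± 0.30 (adjusted p = 0.00221). Ccr2 itself had a step of 0.13 ± 0.13 (adjusted p = 0.612). Among 19 cytokine genes 6 were higher and 2 lower, with a median of 0.22 (0.34 without low dose rat 47). Il1rn, the natural antagonist of interleukin 1, read 0.75, 1.63, 1.98, 2.16 and 2.36 in high dose rats, against -0.42, -0.13, 0.08, 0.23 and 0.58 in low dose rats. Low dose rats did not differ from air by the test (0.07, 95% interval -0.39 to 0.53), and the step to the high dose was 1.71 ± 0.23 (adjusted p = 5.26e-06). Tnf, a central inflammatory cytokine, rose by 1.56 ± 0.30 after 0.27 at the low dose. Il10, which restrains macrophages, was above background in all 5 high dose rats and in 0 low dose and 0 air rats. It passed the filter on dim probes through the high dose rats, so no test of it is given. Il10 is nevertheless 1 of the 6 cytokine genes counted as higher and enters their median. Il1b was already 1.56 above air at the low dose, and its step of 0.48 ± 0.26 did not pass (adjusted p = 0.273). Spp1, osteopontin, made by lung macrophages in injury, read 1.74, 3.03, 3.29, 3.61 and 3.64 in high dose rats, against 1.27, 1.54, 1.73, 1.85 and 1.99 in low dose rats, with overlapping groups, and rose by 1.39 ± 0.24 (adjusted p = 0.000164). Il33, an alarm signal of epithelium and vessels, fell by 0.54, and Il16 by 0.25.

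The interferon response had the highest median step among the 46 lists. Of 33 measured members 31 were higher at the high dose and 0 lower, with a median of 1.21. In 31 all high dose rats lay above all low dose rats, against 783 of 11665 genes with a symbol. At the low dose 4 of the 33 passed against air (median 0.20). By class 18 were high dose only, against 815 of the 11665 genes. Another 9 scaled with the low dose unresolved, 4 were graded and 2 were not classed, Igtp and Bst2 (0.25 ± 0.13 and 0.53 ± 0.20, adjusted p = 0.248 and 0.0878). The mean of the list was 1.43 to 1.80 in high dose rats and 0.01 to 0.72 in low dose rats, with low dose rat 50 the highest of its group.

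Rsad2 (viperin), an antiviral enzyme, read 3.48, 3.53, 3.98, 4.06 and 4.18 in high dose rats, against -0.04, 0.43, 0.55, 1.44 and 2.15 in low dose rats, a step of 2.94 ± 0.28 (adjusted p = 2.63e-08) and 7.67-fold. Low dose rats were spread widely, and 4 of the 5 lay above the air range of -0.26 to 0.40. Irf7, a factor that amplifies interferon production, read 2.93, 2.99, 3.22, 3.35 and 3.36 in high dose rats, against 0.34, 0.73, 0.95, 1.07 and 1.67 in low dose rats and rose by 2.22 ± 0.27 (adjusted p = 1.36e-06). Promoters of these 2 genes are shown because they had the smallest p among the named members with the response element before the gene start. Each line gives the 150 bases before the gene start on the minus strand of RefSeq assembly GRCr8, Rsad2 at chr6:48788121-48788270 and Irf7 at chr1:205800024-205800173, with the match in capitals. It is the interferon-stimulated response element, GAAA, any 2 bases and GAAA, read on the opposite strand, and begins 147 bases before the start in Rsad2 and 69 bases before it in Irf7.
Rsad2: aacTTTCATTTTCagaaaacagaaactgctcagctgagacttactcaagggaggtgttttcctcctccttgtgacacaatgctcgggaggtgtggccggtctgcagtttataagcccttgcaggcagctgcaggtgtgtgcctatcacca
Irf7: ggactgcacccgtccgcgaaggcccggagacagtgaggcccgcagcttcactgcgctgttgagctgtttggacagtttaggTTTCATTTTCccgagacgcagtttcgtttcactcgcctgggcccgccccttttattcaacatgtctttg

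The element was searched on both strands from 250 bases before to 50 bases after the gene start. It was in 17 of 25 interferon list members with a promoter in the RefSeq table (68%) and in 1034 of all 27457 promoters (3.77%), and 0 of those member matches overlapped another of the 5 motifs searched. Irf7 and Rsad2 were among the 4 graded members, with Usp18 and Isg20. Usp18, which turns interferon signalling off, rose by 2.49 ± 0.28 (adjusted p = 3.73e-07), after 0.93 at the low dose (adjusted p = 0.0411). A second probe of Usp18 gave a step of 2.13 after 0.67 at the low dose, which did not pass (adjusted p = 0.080).

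The high dose only members included sensors, effectors and the signalling factors themselves. Ifit2, which blocks translation of foreign RNA, read 1.78, 2.10, 2.18, 2.47 and 2.54 in high dose rats, against -0.45, -0.01, 0.10, 0.16 and 0.74 in low dose rats. Low dose rats lay around the air rats (-0.34 to 0.32), and the step was 2.11 ± 0.19 (adjusted p = 1.48e-08). Oas2, which senses double-stranded RNA, read 0.89, 0.96, 0.98, 1.22 and 1.33 in high dose rats, against -0.19, -0.17, -0.06, -0.05 and 0.06 in low dose rats, and rose by 1.16 ± 0.09 (adjusted p = 1.28e-09) with low dose minus air at -0.08 (95% interval -0.27 to 0.10). Its relative Oasl, above background in 4 of 5 low dose rats, rose by 1.44 ± 0.14. The RNA sensor Dhx58 rose by 1.55 ± 0.12 (adjusted p = 1.94e-09) and Cmpk2, a nucleotide kinase outside the list, by 1.52 ± 0.15. Stat2 and Irf9, parts of the factor that reads the response element, rose by 1.08 ± 0.11 and 0.81 ± 0.13, against 0.18 and 0.20 for the low dose over air. Socs1, an inhibitor of that pathway and also outside the list, rose by 0.55 ± 0.09 (adjusted p = 7.1e-05).

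Several strong members were unresolved at the low dose. Mx1, a GTPase that blocks viruses, read 2.77, 3.28, 3.32, 3.39 and 3.65 in high dose rats, against -0.23, 0.21, 0.42, 1.24 and 1.79 in low dose rats, with a step of 2.60 ± 0.30 (adjusted p = 6.61e-07) and a low dose difference of 0.69 (adjusted p = 0.185, 95% interval 0.07 to 1.30). Slfn4 and Ifit3 rose by 2.94 ± 0.31 and 2.36 ± 0.29, and the ubiquitin-like protein Isg15 by 1.77 ± 0.32. Outside the list, Ifi27l2b, an interferon-induced gene, read 3.94, 4.25, 4.31, 4.46 and 4.76 in high dose rats, against 0.69, 1.00, 1.03, 1.07 and 2.59 in low dose rats. It rose by 3.07 ± 0.25 (adjusted p = 3.14e-09), and low dose rat 50 at 2.59 was apart from the 4 others of its group. Siglec1, an interferon-induced adhesion receptor of macrophages, read 1.98, 3.25, 3.95, 4.51 and 4.65 in high dose rats, against -0.04, 0.63, 0.67, 1.00 and 1.08 in low dose rats and rose by 3.0 ± 0.31 (adjusted p = 1.68e-07). The excess over air at the high dose was 15.3 times that at the low dose for Rsad2.

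Pattern recognition and its signalling rose in part. Of 21 Toll-like receptor and NF-kB genes 10 were higher and 0 lower (median 0.44). Tlr2, the receptor for bacterial lipoproteins, read 1.75, 1.92, 1.98, 2.17 and 2.26 in high dose rats, against 0.69, 0.92, 0.94, 1.04 and 1.25 in low dose rats, a graded gene with a step of 1.05 ± 0.12 (adjusted p = 4.68e-07) after 0.97. Cd14, a co-receptor of Toll-like receptors, rose by 1.03 ± 0.18 after 0.86, and Nfkbie, an inhibitor of NF-kB, by 0.80 ± 0.11 (adjusted p = 6.94e-06). Tlr4, Tlr6, Tlr7, Ly96 and Myd88 rose by 0.46, 0.82, 0.49, 0.58 and 0.53, and none of these 5 passed at the low dose against air. The inflammasome genes Nlrp3 and Pycard did not pass (0.13 and 0.37, adjusted p = 0.181 and 0.143). Among 13 interleukin 6 signalling genes 4 were higher and 0 lower (median 0.26). Bcl3, an NF-kB partner, rose by 0.95 ± 0.13 (adjusted p = 6.73e-06) and Pim1, a kinase downstream of Stat3, by 0.87 ± 0.14. Stat3 had a step of 0.26 ± 0.11 (adjusted p = 0.133).

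Macrophage and monocyte markers were higher at the high dose in 9 of 26 and lower in 2, with a median of 0.51 (between 8 and 16 members passed with 1 rat left out). The list mean was 0.64 to 1.62 in high dose rats and 0.31 to 0.94 in low dose rats, so the groups overlapped. Within single slides the list median ran from -0.20 to 0.91 and was positive on 3 of the 4. In whole lung, fewer cells of a type and less RNA per cell cannot be told apart, and the same holds for more. Besides Siglec1, the Fc receptor Fcgr1a read 1.33, 1.87, 1.96, 2.05 and 2.37 in high dose rats, against 0.24, 0.74, 0.78, 0.82 and 0.93 in low dose rats and rose by 1.21 ± 0.15 (adjusted p = 2.98e-06), with low dose rat 49 at 0.24 the lowest. Msr1, a scavenger receptor, rose by 0.87 ± 0.24, Clec4a3 by 1.29 ± 0.22 and Vcan, a proteoglycan of monocytes, by 1.02 ± 0.17. Itgam, the integrin of monocytes and neutrophils, rose by 0.87 ± 0.19 (adjusted p = 0.0018), but not with Agilent's processed signals (0.61, adjusted p = 0.208). Lower were Pparg (-0.73 ± 0.20) and Fabp4 (-1.0 ± 0.29), both genes of resting alveolar macrophages. Mmp12, macrophage elastase, read 3.73, 3.89, 3.97, 4.24 and 4.39 in high dose rats, against 3.16, 3.25, 3.44, 3.59 and 3.96 in low dose rats. It was already 3.48 above air at the low dose, and the step of 0.56 ± 0.17 (adjusted p = 0.0247) was lost without high dose rat 75 or 77 or low dose rat 47 or 49 (0.48 to 0.51), with Agilent's processed signals (0.53), in the authors' deposited log2 ratios (0.47). Its excess over air at the high dose was 1.52 times that at the low dose. Fabp5 and Trem2, of lipid-laden macrophages, were 2.18 and 1.75 above air at the low dose, with steps of 0.55 ± 0.25 and 0.46 ± 0.24 that did not pass (adjusted p = 0.176 and 0.252). How far more macrophage RNA accounts for the chemokine, interferon and lysosome differences was not tested.

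Lysosomal genes were higher in 10 of 28 and lower in 0 (median 0.33), and 5 passed without high dose rat 77 or 79, and 6 passed without low dose rat 49. Scarb2, a lysosomal membrane protein, rose by 0.70 ± 0.14 (adjusted p = 0.000707), and the cathepsins Ctsz and Ctsb by 0.96 ± 0.28 and 0.76 ± 0.19. Ctsd did not pass (-0.14 ± 0.21, adjusted p = 0.752). Of 22 matrix proteases and inhibitors 8 were higher and 0 lower (median 0.23). Mmp7, matrilysin of injured epithelium, read 1.82, 2.52, 3.31, 4.55 and 4.61 in high dose rats, against 0.75, 1.33, 1.5, 1.67 and 1.85 in low dose rats and rose by 1.94 ± 0.32 (adjusted p = 0.00011). Ctss, a cathepsin of antigen-presenting cells, rose by 1.30 ± 0.24 (adjusted p = 0.000495). Timp1, an inhibitor of metalloproteinases, rose by 0.88 ± 0.18 (adjusted p = 0.00133), and Plaur of the plasminogen system by 0.76 ± 0.15, which had not passed at the low dose.

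Of the neutrophil markers 2 of 14 were higher and 2 lower, while 6 had already passed as higher at the low dose. S100a9, an alarmin stored in neutrophils, read 2.76, 2.93, 3.90, 3.92 and 3.95 in high dose rats, against 2.73, 2.95, 3.49, 3.59 and 3.79 in low dose rats. The groups overlapped fully, and high minus low was 0.19 ± 0.36 with a 95% interval of -0.55 to 0.93, too wide for the plateau rule (adjusted p = 0.822). Il1r2, a decoy receptor for interleukin 1, read 1.93, 2.26, 2.33, 2.67 and 2.70 in high dose rats, against 1.82, 2.16, 2.31, 2.32 and 2.92 in low dose rats. It was a plateau gene, 2.31 above air at the low dose with a further 0.07 ± 0.15 (95% interval -0.25 to 0.39). Trem3, a receptor of myeloid cells in rodents, also met the plateau rule (-0.12 ± 0.18, adjusted p = 0.771) after 1.89 at the low dose. Fcgr3a, an Fc receptor of neutrophils, macrophages and natural killer cells, was higher at the high dose than at the low dose by 1.36 ± 0.27 (adjusted p = 0.000926), and high minus air was 0.52 (adjusted p = 0.138).

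T cell markers were higher in 3 of 22, with a median of 0.23. Icos, a co-stimulator of activated T cells, rose by 0.86 ± 0.16 (adjusted p = 0.000499), and Il2ra by 0.39 ± 0.08 (adjusted p = 0.00147), though not with Agilent's processed signals (1.06, adjusted p = 0.0588), and its probe was not above background in air rats. Cd2 was the third, at 0.45 ± 0.12, while Cd3e had 0.48 ± 0.21 (adjusted p = 0.146). B and plasma cell markers had 1 of 16 higher (median -0.02): Blnk, a signalling adaptor of B cells and macrophages, at 0.86 ± 0.13 (adjusted p = 3.99e-05), and 2 passed without high dose rat 76 or low dose rat 48 or 51 or air rat 1. For natural killer and cytotoxic markers it was 2 of 16 (median 0.02), and 1 passed without high dose rat 75 or 77 or low dose rat 47 or 51. These were Klrk1 at 0.87 ± 0.18 (adjusted p = 0.00111), with high dose rat 76 at 0.26 among the low dose rats, and Ctsw at 0.63 ± 0.19 (adjusted p = 0.0281), which was lost without high dose rat 75 or 77 or low dose rat 47 or 51 (0.45 to 0.62), with only the high and low dose rats in the fit (0.63), with Agilent's processed signals (0.85). Mast cell and eosinophil markers had 1 of 14 lower (median -0.10), Gata2 at -0.79 ± 0.23 (adjusted p = 0.0245), and 0 passed without high dose rat 78 or 79 or low dose rat 49 or 50. Rnase3, an eosinophil ribonuclease above background in 3 of 5 high dose rats, fell by 1.23 ± 0.38 (adjusted p = 0.0336), a call lost without high dose rat 77 or 78 or 79 or low dose rat 47 or 51 (-0.97 to -1.25).

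Of 17 genes of class II antigen presentation 4 were higher and 0 lower (median 0.29). RT1-DMa, which loads peptides on class II molecules, rose by 0.86 ± 0.12 (adjusted p = 2.06e-05) after 0.81, and the co-stimulator Cd86 by 0.50 ± 0.17. Clec9a, a receptor of cross-presenting dendritic cells, was a plateau gene at 1.19 over air with a further 0.02 ± 0.14 (95% interval -0.27 to 0.30). Alternative activation and type 2 genes were higher in 5 of 21 (median 0.11), and 3 passed without high dose rat 79 or low dose rat 49. Arg1, which uses up arginine, rose by 1.28 ± 0.35 after 0.19 at the low dose. Slc26a4 (pendrin), an anion exchanger of airway epithelium that interleukin 13 raises, read 3.20, 3.76, 3.77, 3.83 and 3.84 in high dose rats, against 2.50, 2.57, 2.58, 2.77 and 2.89 in low dose rats. It rose by 1.02 ± 0.13 (adjusted p = 4.11e-06) after 2.66, and with Agilent's processed signals the step was 0.31 (adjusted p = 0.746). Clec10a, a lectin of alternatively activated macrophages, rose by 0.81 ± 0.19 (adjusted p = 0.00406). Retnla and Chia were 1.17 and 1.08 above air at the low dose, with steps of 0.24 ± 0.33 and 0.39 ± 0.28 that did not pass (adjusted p = 0.738 and 0.447).

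Among 22 acute phase and secreted defence genes 11 were higher at the low dose than in air (median 0.64), and 2 were higher at the high dose than at the low dose (median 0.39), namely Ptx3 (0.60 ± 0.17, second probe 0.05 with adjusted p = 0.781) and Reg3b, above background in 3 high dose and 2 low dose rats. With 1 rat left out the number was 0 (high dose rat 77 or 79) to 4 (high dose rat 76), and it was 1 without high dose rat 78 or any of the 5 low dose rats. Lcn2, which withholds iron from microbes, read 4.13, 4.35, 4.49, 5.05 and 5.14 in high dose rats, against 3.76, 3.82, 4.52, 4.60 and 4.62 in low dose rats. The groups overlapped, with a step of 0.36 ± 0.33 and a 95% interval of -0.32 to 1.05 (adjusted p = 0.574), after 4.27 at the low dose. Orm1, an acute phase glycoprotein, read 2.39, 3.18, 3.20, 3.46 and 3.51 in high dose rats, against 2.06, 2.12, 2.37, 2.56 and 3.63 in low dose rats, and its step of 0.60 ± 0.20 did not pass (adjusted p = 0.0537). It passed with the Cy5 channel alone (0.74, adjusted p = 0.0198) and without high dose rat 76 (0.79) or low dose rat 51 (0.87). The beta-defensin Defb5 was 3.74 above air at the low dose with a step of 1.03 ± 0.44 (adjusted p = 0.142), while another defensin, Defb52, rose by 2.73 ± 0.23 (adjusted p = 5.15e-09) after 0.66. The excess over air at the high dose was 1.3 times that at the low dose for Lcn2 and 1.63 times for Orm1. Intervals of this width leave these genes outside the plateau class, and a step that does not pass does not show equal levels.

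Of 19 complement genes 6 were higher and 0 lower (median 0.31). C3, the central component, read 2.48, 2.74, 2.81, 2.82 and 2.88 in high dose rats, against 2.09, 2.27, 2.43, 2.69 and 2.69 in low dose rats. Its step of 0.31 ± 0.20 did not pass (95% interval -0.09 to 0.72, adjusted p = 0.361), after 2.43 at the low dose. C2, of the classical pathway, read 1.28, 1.39, 1.45, 1.63 and 1.89 in high dose rats, against -0.18, -0.14, 0.25, 0.39 and 0.62 in low dose rats, with a low dose difference of 0.19 and a step of 1.34 ± 0.20 (adjusted p = 2.3e-05). C3ar1, the receptor of the C3a fragment, was high dose only, at 0.91 ± 0.11 (adjusted p = 1.14e-06). The regulator Cfi rose by 1.19 ± 0.25 and the terminal component C6 by 1.06 ± 0.23, both graded. F10, a clotting factor of liver and macrophages, was above background in 5 high dose rats, 3 low dose rats and 1 air rat, and rose by 1.78 ± 0.19 (adjusted p = 2.28e-07). Over the alternatives with a test its step lay between 1.69 and 3.80 (log2), the highest with Agilent's processed signals, and passed in each; within slide 1 it was 1.12.

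Most genes of cell division were higher at each dose step. Of 37 mitosis genes 30 were higher at the high dose than at the low dose (median 0.73), 23 at the low dose than in air (median 0.65) and 35 at the high dose than in air (median 1.36), and none of the 3 counts held a decrease. In 31 of them all high dose rats lay above all low dose rats, against 783 of 11665 genes with a symbol. By class 22 were graded, 5 had the low dose unresolved and 3 were high dose only. Of the 11665 genes 418 were graded. The list mean was 1.32 to 1.57 in high dose rats and 0.42 to 0.85 in low dose rats. Cdk1, the kinase that starts mitosis, read 2.40, 2.58, 2.60, 2.63 and 2.72 in high dose rats, against 0.81, 1.24, 1.24, 1.59 and 1.74 in low dose rats. The groups did not overlap, with 1.32 from air to the low dose and 1.26 ± 0.13 (adjusted p = 8.09e-08) from low to high. Ckap2, a spindle protein, rose by 1.05 ± 0.12 (adjusted p = 9.81e-07). The cyclins Ccna2 and Ccnb1 rose by 1.18 ± 0.20 and 0.73 ± 0.11, and the anaphase regulators Cdc20 and Ube2c by 0.87 ± 0.12 and 1.03 ± 0.16.

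DNA replication and nucleotide synthesis genes were higher in 23 of 38 and lower in 0 (median 0.42), and 14 passed without high dose rat 78 or 79 or low dose rat 49. Rrm2, the subunit of ribonucleotide reductase made in S phase, read 2.59, 2.72, 3.13, 3.40 and 3.45 in high dose rats, against 0.88, 1.60, 1.89, 2.11 and 2.12 in low dose rats and rose by 1.34 ± 0.19 (adjusted p = 1.88e-05). A second probe of Rrm2 gave a step of 0.97 (adjusted p = 0.00753) after 0.75 at the low dose, which did not pass (adjusted p = 0.0611). Tk1, thymidine kinase, rose by 1.12 ± 0.12 (adjusted p = 2.98e-07) and the helicase subunit Mcm3 by 0.81 ± 0.10 (adjusted p = 1.89e-06). The excess over air at the high dose was 3.32 times that at the low dose for Cdk1, 3.2 times for Rrm2 and 3.05 times for Tk1. The exposures differed by 4 times. Being ratios of means without an error, the 3 values were not tested against 4. The cell cycle homology region TTTGAA was in 21 of 29 mitosis genes with a promoter (72.4%) and in 4962 of the 27457 promoters (18.1%), and 1 of these members' matches overlapped another searched motif. Cdkn2b, the cyclin-dependent kinase inhibitor p15, was opposed: it read -0.35, -0.33, -0.21, 0.13 and 0.28 in high dose rats, against 0.47, 0.59, 0.81, 0.94 and 1.1 in low dose rats, with 0.78 at the low dose over air, a step of -0.88 ± 0.12 (adjusted p = 1.28e-05) and air rats at -0.17 to 0.15. A second probe of the gene read -0.57 for the step (adjusted p = 0.00458).

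**Figure D4:**
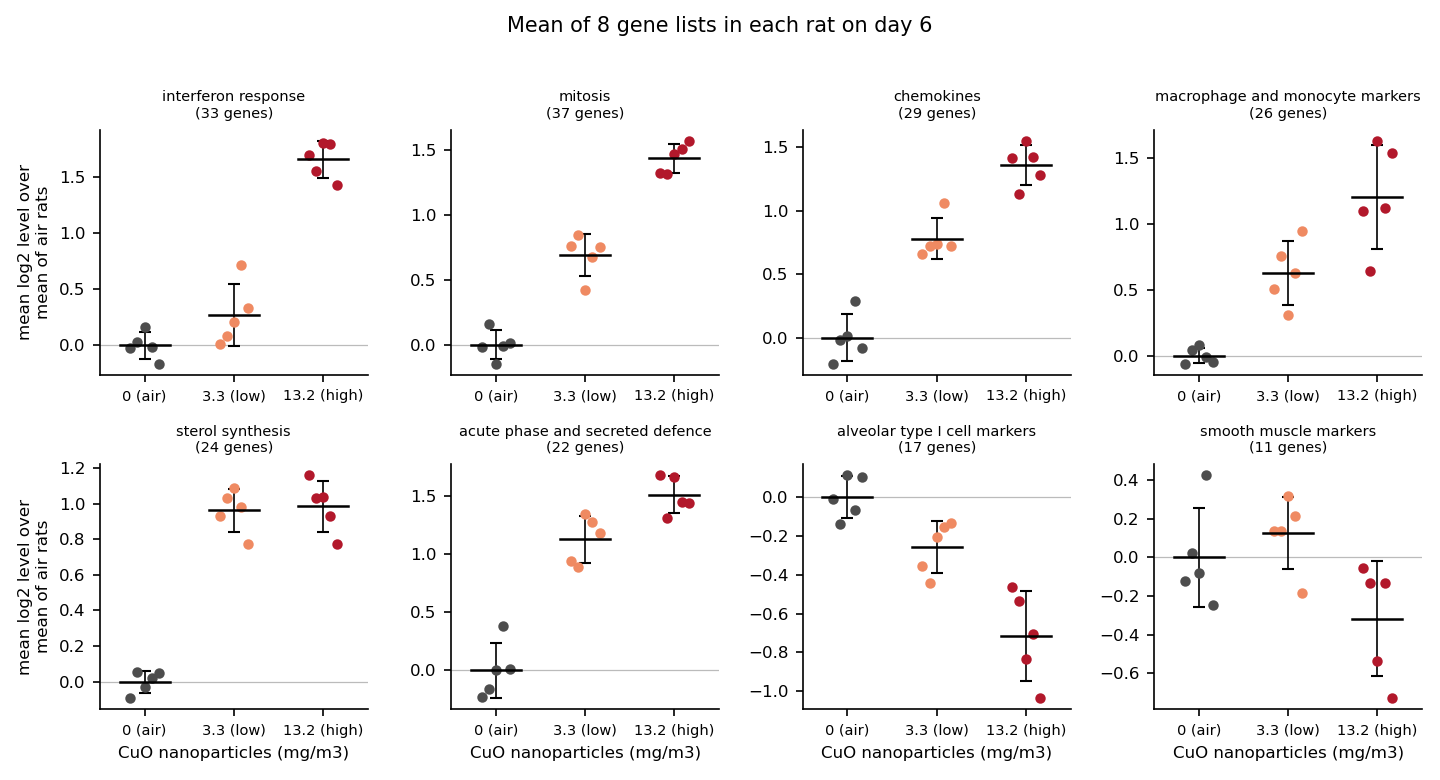
Mean log2 level over air of the genes of 8 lists on day 6 in each rat (points) at 0, 3.3 and 13.2 mg/m3, with the group mean (line) and SD (error bar, n = 5). Interferon and mitosis lists separate high from low dose rats, and the sterol synthesis list lies between 0.77 to 1.16 in high dose and 0.78 to 1.09 in low dose rats.

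Sterol synthesis held 10 of the 35 genes at a plateau. Of 24 measured genes 23 were higher at the low dose than in air (median 0.95) and 21 at the high dose than in air (median 0.96), yet 0 were higher and 1 lower at the high dose than at the low dose, with a median of 0.05 (-0.02 in the authors' deposited log2 ratios, -0.01 without high dose rat 75) and quartiles of -0.04 and 0.11. By class 10 of the 24 met the plateau rule, against 35 of all 18889 genes. They run along the pathway: Hmgcs1 at its start, the isoprenoid enzymes Mvd, Idi1 and Fdps, then Sqle, Lss, Cyp51, Tm7sf2 and Dhcr7, and Insig1, which holds SREBP in the endoplasmic reticulum. Idi1 read 1.68, 1.74, 1.85, 1.88 and 1.89 in high dose rats, against 1.53, 1.70, 1.77, 1.78 and 1.92 in low dose rats. The rats of both doses lay on each other and apart from air (-0.24 to 0.32), with a step of 0.07 ± 0.13 and a 95% interval of -0.19 to 0.33 (adjusted p = 0.812). Tm7sf2, a sterol reductase, read 1.39, 1.55, 1.83, 2.08 and 2.24 in high dose rats, against 1.66, 1.77, 2.09, 2.12 and 2.19 in low dose rats, with a step of -0.15 ± 0.16 (95% interval -0.47 to 0.18) after 1.96. Fdps and Sqle, which lead into squalene and out of it, were 1.77 and 1.75 above air at the low dose, with steps of 0.00 ± 0.17 (95% interval -0.36 to 0.35) and 0.10 ± 0.16 (-0.24 to 0.43). Acat2, which supplies acetoacetyl-CoA, was a plateau gene outside the list (1.25, then 0.03 ± 0.13). Wider intervals or low dose changes under 2-fold left most other members unclassed.

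Stard4, a sterol carrier, was the 1 sterol gene that passed, at -0.34 ± 0.09 (adjusted p = 0.011), and a second probe gave 0.18 (adjusted p = 0.521). Without high dose rat 76, Mvd passed too (0.37). The sterol regulatory core TCACNCCAC was found in 0 of 16 members with a promoter and in 310 of 27457 promoters (1.13%), so no sterol promoter is shown. With the plateau rule set at a low dose change of at least 0.5, 17 of the 24 genes met it. Fatty acid and triglyceride synthesis had 2 of 20 higher and 1 lower (median 0.10), near the shares of all genes with a symbol (1067 and 503 of 11665). Fasn, fatty acid synthase, was a plateau gene, 1.02 above air at the low dose with a further 0.01 ± 0.14 (95% interval -0.28 to 0.29). Gpam, the first step of triglyceride synthesis, rose by 0.55 ± 0.09 (adjusted p = 0.00016), and Dgat2, its last step, fell by 0.62 ± 0.12 (adjusted p = 0.000698). Plin2, which coats lipid droplets, rose by 0.66 ± 0.16. Further plateau genes were Tekt2, a cilium protein (1.04 at the low dose, then 0.17 ± 0.12), and those named above.

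**Figure D5:**
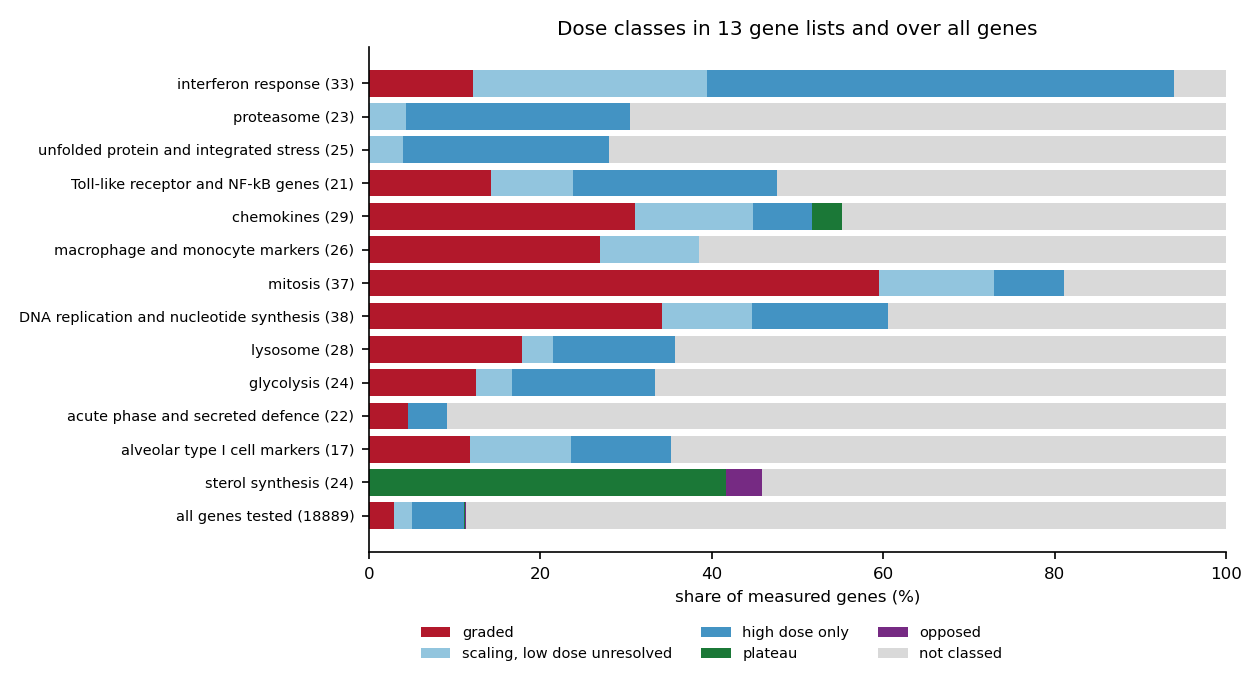
Share of the measured genes of 13 lists, and of all 18889 genes, in each dose class (% of genes, stacked). High dose only fills the largest part of the interferon bar, graded that of the mitosis bar and plateau that of the sterol bar apart from the genes not classed; the classes were made from these same rats.

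Nrf2 targets were higher in 6 of 29 and lower in 1 (median 0.17). Hmox1, heme oxygenase, read 1.51, 2.03, 2.97, 3.26 and 3.78 in high dose rats, against 0.17, 0.85, 1.05, 1.21 and 1.22 in low dose rats and rose by 1.81 ± 0.29 (adjusted p = 8.54e-05). Slc7a11, the cystine importer, read 2.56, 3.12, 3.70, 3.87 and 4.10 in high dose rats, against 1.56, 1.62, 2.01, 2.26 and 2.38 in low dose rats and rose by 1.51 ± 0.27 (adjusted p = 0.000381), and all high dose rats lay above all low dose rats in both genes. Srxn1, which repairs peroxiredoxins, read 0.68, 0.84, 1.23, 1.37 and 1.92 in high dose rats, against -0.18, -0.08, 0.00, 0.04 and 0.14 in low dose rats. Low dose rats did not differ from air by the test (-0.02, 95% interval -0.38 to 0.34), and the step was 1.23 ± 0.18 (adjusted p = 1.82e-05). Akr1b8, an aldehyde reductase, rose by 1.24 ± 0.14 (adjusted p = 3.59e-07), while Nqo1, a standard marker of Nrf2, had 0.15 ± 0.16 (95% interval -0.19 to 0.49, adjusted p = 0.653). Gsta4, a glutathione transferase, fell by 0.75. The antioxidant response element TGACNNNGC was in 8 of 24 members with a promoter (33.3%) against 3342 of 27457 promoters (12.2%).

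Metallothionein, zinc and copper handling gave 4 of 23 higher and 1 lower (median 0.11), and 3 passed without high dose rat 79 or low dose rat 49 or 50. Mt1, which binds zinc and copper, read 1.27, 2.09, 2.44, 2.57 and 2.88 in high dose rats, against 0.82, 0.98, 1.05, 1.09 and 1.36 in low dose rats. The groups overlapped through the lowest high dose rat, and the step was 1.19 ± 0.22 (adjusted p = 0.00044) after 1.06. Mt2A read 0.81, 1.55, 2.05, 2.29 and 2.44 in high dose rats, against 0.35, 0.38, 0.41, 0.64 and 0.66 in low dose rats and rose by 1.34 ± 0.30 (adjusted p = 0.0034). The zinc exporter Slc30a1 and the metal importer Slc39a8 rose by 0.41 ± 0.09 and 0.49 ± 0.16, and Sod3, the secreted copper enzyme, fell by 0.51. The copper pumps and chaperones did not pass: Atp7a had -0.06 ± 0.10, Atp7b -0.07 ± 0.12, Atox1 0.11 ± 0.16 and Ccs -0.05 ± 0.15. The metal response element TGCNCNC was in 13 of 20 members with a promoter (65%) against 13767 of 27457 (50.1%), and 2 of these members' matches overlapped another motif. Heme and iron handling had 4 of 20 higher (median 0.24). Slc11a2, an iron importer, rose by 0.91 ± 0.12 (adjusted p = 2.78e-06) on its brightest probe, against 0.21 on the other (adjusted p = 0.258), Slc11a1 of phagosomes by 1.09 ± 0.31 and hemopexin, Hpx, by 0.85 ± 0.19.

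Oxidant producing and removing enzymes were higher in 7 of 21 and lower in 1 (median 0.26), and 4 passed without high dose rat 77 or 79, and 5 passed without high dose rat 78 or low dose rat 49 or 50. Sod2, the mitochondrial superoxide dismutase, rose by 1.12 ± 0.15 (adjusted p = 7.46e-06). Subunits of the phagocyte oxidase rose as well, Cybb by 0.81 ± 0.21, Ncf1 by 0.71 ± 0.21, Ncf4 by 0.63 ± 0.14 (adjusted p = 0.00304) and Cyba by 0.47 ± 0.15. The epithelial oxidases Duox1 and Duoxa1 were 1.43 and 1.35 above air at the low dose, with steps of 0.26 ± 0.24 and 0.46 ± 0.16 that did not pass (adjusted p = 0.58 and 0.0543). Gpx4 fell by 0.33.

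Stress of the endoplasmic reticulum and amino acid supply gave 7 of 25 higher and 0 lower (median 0.21, 0.34 without high dose rat 76), and 4 passed without high dose rat 77 or 79 or low dose rat 49. Ddit3 (CHOP), a factor of the integrated stress response, rose by 0.63 ± 0.11 (adjusted p = 0.000359) and Asns, asparagine synthetase, by 0.43 ± 0.10 (adjusted p = 0.00625). By class 6 were high dose only. Proteasome genes gave 7 of 23 higher (median 0.25), led by the parts of the immunoproteasome that interferon induces: Psmb8 at 1.18 ± 0.24, Psmb9 at 0.91 ± 0.12 (adjusted p = 8.46e-06) and Psmb10 at 0.69 ± 0.08 (adjusted p = 1.89e-06), and the activator subunits Psme1 and Psme2 at 0.37 ± 0.12 and 0.64 ± 0.10. The standard catalytic subunits Psmb5, Psmb6 and Psmb7 had 0.04, 0.24 and 0.25 and did not pass. Glycolysis gave 8 of 24 higher (median 0.21), and 5 passed without high dose rat 77 or low dose rat 47. Hk3, the hexokinase of myeloid cells, rose by 1.19 ± 0.26, Slc16a3, which exports lactate, by 0.61 ± 0.12 (adjusted p = 0.000653), and the glucose importer Slc2a1 by 0.47 ± 0.10 (adjusted p = 0.0025).

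Targets of p53 were higher in 5 of 16 (median 0.06), and 2 passed without high dose rat 79, and 3 passed without high dose rat 77 or 78 or low dose rat 49 or 50 or 51. Gdf15, a stress hormone, rose by 0.86 ± 0.21 (adjusted p = 0.00725) and Gadd45g by 0.52 ± 0.13 (adjusted p = 0.00672), but Cdkn1a and Mdm2, core targets of p53, had 0.25 ± 0.17 and 0.05 ± 0.10 and did not pass. Immediate early genes had 2 of 21 higher and 1 lower (median -0.08), and 5 passed without high dose rat 76. Fosl1 rose by 0.82 ± 0.21 (adjusted p = 0.00918) and Myc by 0.43 ± 0.12 (adjusted p = 0.0157), the second not with the Cy5 channel alone (0.35, adjusted p = 0.0748), while Klf4 fell by 0.54. Of 12 heat shock genes 0 were higher and 0 lower (median 0.00), and of 29 respiratory chain genes 0 and 0 (median 0.00), all in limma at an adjusted p, with 1 and 0 at an unadjusted p under 0.05. Prostaglandin and leukotriene genes gave 2 higher and 2 lower of 20 (median -0.06). Ptges, which makes prostaglandin E, rose by 0.91 ± 0.20 (adjusted p = 0.00328) and its receptor Ptger2 by 0.76 ± 0.14 (adjusted p = 0.000314), and the phospholipase Pla2g2d and the cyclooxygenase Ptgs1 fell by 0.93 and 0.32.

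Several markers of the alveolar wall, vessels and smooth muscle were lower at the high dose. Alveolar type I cell markers were lower in 6 of 17 and higher in 0, with a median of -0.36 and list means of -1.03 to -0.46 in high dose rats and -0.44 to -0.13 in low dose rats. Cav1, the coat protein of caveolae in flat alveolar cells and endothelium, read -2.19, -1.78, -1.62, -1.36 and -1.05 in high dose rats, against -0.68, -0.61, -0.59, -0.41 and -0.31 in low dose rats. The groups did not overlap, and it fell by 1.08 ± 0.14 (adjusted p = 5.28e-06) after -0.52 at the low dose. Emp2, a membrane protein, fell by 0.72 ± 0.14, Cyp4b1, a fatty acid hydroxylase, by 1.11 ± 0.23, and Cav2, Akap5 and the vessel growth factor Vegfa by 0.98, 0.95 and 0.66. The 2 defining markers Ager and Aqp5 had -0.11 ± 0.10 and -0.08 ± 0.15 and did not pass (adjusted p = 0.552 and 0.825). Type II cell markers had 2 of 17 higher and 1 lower (median 0.02), and 0 passed without high dose rat 77 or 79 or low dose rat 50, and 1 passed without high dose rat 78 or low dose rat 47 or 49. Sftpc, the surfactant protein that defines these cells, had -0.11 ± 0.24 (95% interval -0.60 to 0.38, adjusted p = 0.839), and Etv5, a factor of these cells, -0.48 ± 0.14, with -0.21 on a second probe.

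In the airways, 1 of 12 club, goblet and mucin genes was higher (median -0.15, and 0.05 without low dose rat 49), Muc20, a membrane mucin, at 0.34 ± 0.11 (adjusted p = 0.0388), which passed in 2 of the 10 fits that left out 1 exposed rat and in each of those that left out 1 air rat. With only the high and low dose rats in the fit and with Agilent's processed signals Muc20 did not pass either, with adjusted p up to 0.546. The club cell protein Scgb1a1 had -0.14 ± 0.14 (adjusted p = 0.598), but -0.80 with the Cy5 channel alone (adjusted p = 0.0377). Ciliated cell markers had 1 of 14 lower (median -0.35), Tppp3, a tubulin binding protein, at -0.93 ± 0.18 (adjusted p = 0.000763). The mean of the list overlapped between the doses, at -0.65 to 0.50 (log2 over air) in high dose rats against -0.02 to 0.56 in low dose rats, with air rat 4 at 0.86, and its difference between doses was positive within 2 of the 4 slides (-0.84 to 0.38). Basal and injured epithelium markers had 0 higher and 0 lower of 24 (median 0.05) in limma at an adjusted p, with 5 at an unadjusted p under 0.05, and 1 or 2 passed in 8 of the 15 fits that left out 1 rat. Endothelial markers were higher in 1 and lower in 3 of 23 (median -0.25). Esm1, a product of sprouting endothelium, read -2.90, -2.57, -2.22, -2.06 and -2.0 in high dose rats, against -1.31, -0.94, -0.91, -0.75 and -0.05 in low dose rats and fell by 1.56 ± 0.26 (adjusted p = 0.000104). Tek and Apln fell by 0.54 and 0.74, and Sele, the adhesion molecule of inflamed vessels, rose by 0.58 ± 0.13 (adjusted p = 0.00249). With the Cy5 channel alone 10 of the 23 passed. Tmem100, of lung endothelium, was high dose only at -1.06 ± 0.20 (adjusted p = 0.000693).

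Smooth muscle markers were lower in 3 of 11 (median -0.52), and 5 passed without high dose rat 75 or 76 or air rat 4. Mylk, myosin light chain kinase, fell by 0.63 ± 0.12 (adjusted p = 0.000723) and Ppp1r14a, an inhibitor of myosin phosphatase, by 0.65 ± 0.15 (adjusted p = 0.00443), both high dose only. Acta2 had -0.52 ± 0.18 (adjusted p = 0.0569). The heart muscle list had 1 member lower of 18, Cox8b at -1.64 ± 0.37 (adjusted p = 0.0033), and 2 without air rat 4. Actc1 had -1.54 ± 0.60 (adjusted p = 0.103), which passed with only the high and low dose rats in the fit (adjusted p = 0.0177) and without air rat 4 (-1.54). The list's median of -0.43 was 0.02 without low dose rat 49, whose heart muscle RNA is given above. Erythroid markers had 1 of 7 lower (median -0.39), Hbb-b1 at -0.81 ± 0.27 (adjusted p = 0.0467), a near copy of Hbb, so that the array may not tell them apart, and 0 to 2 passed with 1 rat left out. Extracellular matrix genes had 3 of 23 higher (median 0.05): Tgfbi, a matrix protein of activated macrophages and fibroblasts, at 1.19 ± 0.16 (adjusted p = 5.76e-06), Timp1, and fibronectin, Fn1, at 0.52 ± 0.12. Eln, Loxl1 and Cthrc1 were 1.02, 0.98 and 1.70 above air at the low dose, with steps of 0.05 ± 0.27, 0.01 ± 0.25 and 0.64 ± 0.24 that did not pass (adjusted p = 0.938, 0.987 and 0.0782).

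Xenobiotic metabolism was higher in 1 and lower in 4 of 26 (median -0.26), and 2 passed without high dose rat 78 or 79, and 3 passed without low dose rat 49 or 50 or 51. Besides Cyp4b1, Cyp2e1 fell by 0.83 ± 0.23 (adjusted p = 0.0155, and 0.0513 without low dose rat 51, at -0.73) and the flavin monooxygenase Fmo1 by 0.81. Clock genes were higher in 2 and lower in 4 of 15 (median -0.13). Nr1d1 (Rev-erb alpha), a repressor in the clock's second loop, read -1.66, -1.33, -1.25, -0.63 and -0.25 in high dose rats, against 0.05, 0.06, 0.07, 0.07 and 0.34 in low dose rats. Low dose rats lay among the air rats (-0.44 to 0.24) apart from rat 49, and the step was -1.14 ± 0.19 (adjusted p = 8.99e-05). Dbp and Tef, outputs of the clock, fell by 0.87 and 0.62, and Npas2 by 0.67, while Nfil3 rose by 0.46 ± 0.10. Cry1, a repressor of the first loop, was opposed: -0.58 at the low dose over air and 0.51 ± 0.10 (adjusted p = 0.00107) from low to high.

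The class I genes RT1-CE4 and RT1-CE7 were -0.96 and -0.78 at the low dose over air and 1.00 ± 0.23 (adjusted p = 0.0044) and 0.62 ± 0.19 (adjusted p = 0.0298) at the dose step. They belong to a family of near-identical copies that a probe may not separate, and the RT1-CE7 call was lost without high dose rat 77 or 78 or low dose rat 47 (0.48 to 0.59), with Agilent's processed signals (0.58), with the Cy5 channel alone (0.53). Olr1, a receptor for oxidised lipoprotein, had -0.90 and then 0.75 ± 0.14 (adjusted p = 0.000497). Aldh1l1, a folate enzyme, had 0.72 and then -0.54 ± 0.13 (adjusted p = 0.00443). Slc13a3, a dicarboxylate carrier, had 1.27 and then -0.78 ± 0.23 (adjusted p = 0.0253), lost without high dose rat 75 or 77 or 79 or low dose rat 48 or 51 (-0.63 to -0.80), with only the high and low dose rats in the fit (-0.78). Kcne2, a potassium channel subunit, had 0.72 and then -0.67 ± 0.21 (adjusted p = 0.0326), lost without high dose rat 77 or 78 or 79 or low dose rat 48 or 50 or 51 (-0.56 to -0.66), with only the high and low dose rats in the fit (-0.67). In 5 of these 6, all but RT1-CE4, the high and low dose rats overlapped.

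Some of the largest decreases lay outside these groups. Prodh2, a hydroxyproline dehydrogenase, read -2.64, -2.28, -2.24, -2.17 and -1.74 in high dose rats, against -1.39, -1.39, -0.23, 0.33 and 0.45 in low dose rats and fell by 1.77 ± 0.25 (adjusted p = 1.15e-05). Cd46, a complement regulator, read -1.15, -1.05, -0.95, -0.90 and -0.31 in high dose rats, against 0.09, 0.45, 0.87, 0.94 and 1.14 in low dose rats, with 0.70 at the low dose over air and a fall of 1.57 ± 0.30 (adjusted p = 0.000738). Aoc3, the vascular adhesion amine oxidase, fell by 1.26 ± 0.15 (adjusted p = 1.75e-06) after -0.65. The high and low dose rats did not overlap in any of these 3 genes. The kininogen Kng2l1, the potassium channel subunit Kcnmb2 and the acyl-CoA synthetase Acsm5 fell by 1.46, 1.31 and 1.15, with low dose minus air at -0.06, -0.05 and 0.22. A second probe of Acsm5 gave a step of -0.61 (adjusted p = 0.0020). Tac1, which encodes substance P, was lower at the low dose than in air by 2.83 (adjusted p = 1.46e-07), above background in 3 of 5 low dose rats and 0 of 5 high dose rats. The difference between the doses did not pass the test (adjusted p = 0.341). A second probe of Tac1 was lower at the low dose than in air by 1.04, with a step of -0.18 to the high dose (adjusted p = 0.532).

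On day 28 the same dose contrast, in other rats of 5 per group, gave 26 genes in limma, and 486 at an unadjusted p under 0.05. The difference between days passed in 570 genes, and 545 of the 570 were among those that differed by dose on day 6. High minus low was more positive on day 6 than on day 28 in 478 and more negative in 92. The 92 thus include genes with a stronger fall on day 6, such as Aoc3 (-1.26, against 0.10 on day 28). For Cxcl11 the day 28 difference was 0.02 and the change between days 2.29 ± 0.16 (adjusted p = 2.3e-10). For Ccl12 these were 0.13 and 3.16 ± 0.48 (adjusted p = 0.000146), for Cxcl10 0.08 and 3.06 ± 0.38 (adjusted p = 1.33e-05), for Rsad2 -0.07 and 3.01 ± 0.39 (adjusted p = 1.71e-05), and for Cdk1 -0.13 and 1.40 ± 0.18 (adjusted p = 1.66e-05). Nr1d1 had the largest of the named changes, with a day 28 difference of 2.71 ± 0.19, opposite to day 6, and -3.85 ± 0.26 (adjusted p = 1.32e-10) between days.

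The arrays lay on 4 slides of 8, each with at least 1 rat of both doses. Of the 2186 genes that differed, 1845 (84.5%) had the direction of the whole on all 4 slides, and within the slides it was 85.2%, 99.9%, 99.4% and 99.8%. These genes were chosen by their difference over the same rats, so such agreement is in large part fixed in advance and is not replication. Slide 4 compares high dose rat 77 with low dose rat 50. Slide 1, the lowest, compares high dose rat 76 with low dose rat 48. Within it Itgam (-0.20), Ncf4 (-0.07), Reg3b (-0.08) and Spp1 (-0.11) had the opposite sign, and Reg3b also on slide 3 (-0.014). Ccl12 had 2.02, 4.07, 4.26 and 2.17 on slides 1 to 4, and Cdk1 0.84, 1.37, 1.20 and 1.48.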

How the data were processed

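Whole lung RNA (200 ng, RNA integrity number above 7) of 30 rats was hybridised to two-colour arrays, and spots were read with Agilent Feature Extraction 11.0.1.1, per the file headers. The deposited spot intensity values of both channels, median spot and median background, were used for the main analysis; mean columns had been planned. The deposited log10 ratio of Agilent's processed signals and the authors' deposited log2 ratio table served as alternatives. The direction of each ratio, lung (Cy5) over reference (Cy3), follows the labels.

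Background was corrected by normexp with an offset of 50, arrays were normalised by loess, and control spots (4259 of 62976) and spots marked as outliers were left out. Probes well above background in Cy5 on at least 5 of 30 arrays were kept (21380 of 30367), and the brightest probe stood for a gene. Accessions matched RefSeq GRCr8 symbols for 18005 probes, and probes without a symbol stood for their accession. Group means of all 6 groups were fitted with limma 3.58.1 in R 4.3.3, and p-values were adjusted by Benjamini-Hochberg over all 18889 genes, so every adjusted p and SE is limma's. The script was tested on simulated data. Each group holds 5 rats, 1 array each, and the number of arrays limits the precision.

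The members, lists and rule for named genes were chosen with earlier results of these data known. The rule took the largest non-overlapping differences (14 increases, 10 decreases), the leading plateau, high dose only and opposed genes, the 2 genes per list whose p was lowest, and a fixed panel; other list members named were chosen after their values were seen. Alternatives changed the background, normalization, filter, probe choice, slide block, threshold and rats. Some results are not reported here.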

Additional observations from a re-analysis of the deposited data

Results flagged for a closer look

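In 11 of 300 groups of 5 rats tested over the named genes (3.67%), 1 rat lay far from the 4 others of its group, where chance gives about 1 in 20. All values are log2 over the mean of air rats. In the low dose group, rat 50 was high for Ccl12 at 4.66 (others 2.36 to 2.96) and for Ifi27l2b at 2.59 (0.69 to 1.07). Rat 49, whose lung sample also held heart muscle RNA, was low for Fcgr1a at 0.24 (0.74 to 0.93) and high for Nr1d1 at 0.34 (0.05 to 0.07). Rat 51 was low for Mvd at 0.94 (1.26 to 1.35). In the high dose group, rat 76 was low for Ckap2 at 1.76 (1.97 to 2.05), for Klrk1 at 0.26 (1.00 to 1.27) and for Slc26a4 at 3.20 (3.76 to 3.84). Rat 79 was low for Aldh1a1 at -0.90 (-0.67 to -0.60), for RT1-CE7 at -0.54 (-0.16 to -0.01) and for Socs1 at 0.41 (0.72 to 0.77).

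The dose difference itself differed between days 6 and 28 in 570 genes by limma's test of that difference, as described for Cxcl11, Ccl12, Rsad2, Cdk1 and Nr1d1.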

How the results depend on the processing

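The precision of a difference between doses was limited by 5 arrays a group. With 1 rat left out, the genes that differed between doses numbered 1352 to 2592 (higher 1012 to 1749, lower 340 to 843), those between low dose and air 870 to 1442, those between high dose and air 5826 to 6762, and those that differed between days 396 to 851. The classes then held 383 to 647 graded, 628 to 1423 high dose only, 222 to 521 with the low dose unresolved, 28 to 39 plateau and 10 to 22 opposed genes, with 16 to 19 interferon genes high dose only, 19 to 23 mitosis genes graded and 8 to 12 sterol genes at plateau. With only the groups of the contrast in the fit, 364 genes differed between days. Agilent's processed signals left 650 genes with the low dose unresolved, and the Cy5 channel alone gave 1090 genes lower. At an adjusted p under 0.01 the counts were 1128 between doses (861 higher, 267 lower), 677 between low dose and air, 268 between days, 263 graded, 536 high dose only and 5 opposed. With a change of at least 1.5-fold as well, they were 826 (622 higher, 204 lower), 539 between low dose and air, 2734 between high dose and air, 224 graded, 222 high dose only and 6 opposed. An interval within 2-fold gave 41 unresolved and 66 plateau genes, and a low dose change of at least 0.5 gave 184 plateau genes, 17 of them of sterol synthesis. These thresholds change the counts by construction, and the cause of the other shifts was not tested. Within slide 1 the sign turned for Itgam (-0.20), Ncf4 (-0.067), Reg3b (-0.081) and Spp1 (-0.11), and within slide 3 for Reg3b (-0.014). Of the comparisons of named genes with 1 rat left out, 2158 kept their side of the threshold, 71 lost the call and 21 gained it. Under other settings these were 1717, 61 and 21. A change of sign in a gene called in either fit occurred in 0 of both kinds. Genes called in neither fit count as kept even where the sign changed, as for Fasn (-0.08 to 0.08 over the alternatives). With slide as a block 2477 genes differed between doses, against 2186 without it, and 734 were graded, against 550. No paired analysis was possible because the rat numbers differ between groups.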
